A study of Mus musculus with 10 samples.

Results

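The genes described here are 39 genes of the B lineage that lie off the bait chromosome of a translocation assay. They were listed by name for their known roles in early B cells, as 19 transcription factors and coactivators, 10 components of the pre-B receptor and its signalling, 3 recombination enzymes and 7 surface and cytokine receptors. They are 39 of 20757 protein-coding genes annotated outside chromosome 6, and all 39 were found in the RefSeq annotation of GRCm38.p6, whose main chromosomes carry the mm10 coordinates. Junctions within a gene body or 5 kb on either side of it were counted, which gave 141 of the 13344 junctions outside chromosome 6 and of 68433 junctions in all. All libraries came from Abelson-transformed pre-B cells of C57BL/6 origin that are LIG4-/-, arrested for 48 h with imatinib (labelled 3 mM), with a zinc-finger nuclease (ZFN) induced by doxycycline at 1 µg/ml from 24 h into the arrest. The 10 libraries form 8 groups, of which etoposide and untreated hold 2 libraries each and the others 1. Treated cells received etoposide at 50 µM for 2.5 h, were washed and then grown for 12 h, either after no pretreatment (etoposide), after IFN, or after 2 h of DRB (labelled 150 mM), and the pretreatments have their own libraries without etoposide (IFN, DRB). In the AsiSI and DRB with AsiSI libraries a restriction enzyme was induced in place of etoposide, with tamoxifen at 1 µM given 20 h after doxycycline. The labels give IFN as an abbreviation without a dose and do not say whether the replicates or the groups came from different cell clones. Lig4 loss, the nuclease and imatinib are shared by every group, the untreated one included, so nothing here describes cells with intact classical end joining. The assay reads DNA joints and not RNA, so the pre-B identity of the cells could not be checked against expressed markers.

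Early B cells are specified by a small network of transcription factors, among which Tcf3, Ebf1, Pax5 and Foxo1 switch on the genes of the lineage, while Ikzf1, Ikzf3, Bach2 and Irf4 take part in leaving the proliferating pre-B stage. The pre-B receptor pairs an immunoglobulin heavy chain with the surrogate light chain (Vpreb1, Igll1) and signals through Cd79a and Cd79b to Syk, Blnk, Btk and Plcg2. Topoisomerase II passes one DNA duplex through a transient break in another, and etoposide traps the enzyme on the cut DNA. In high-throughput genome-wide translocation sequencing, the ZFN cut on chromosome 6 serves as bait, and each read crosses the point where a bait end joined another break, called the prey.

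Depth outside chromosome 6 differed widely, and it sets what can be said of any gene. Junctions outside chromosome 6 numbered 163 with DRB and etoposide, 2005 with IFN and etoposide, 6443 and 2049 in etoposide replicates 1 and 2, 856 with DRB and AsiSI, 709 with AsiSI, 108 with DRB, 146 with IFN, and 618 and 247 in untreated replicates 1 and 2. Read names place replicate 1 of etoposide and of untreated in one sequencing run with long prey alignments (medians of 272 and 253 bp), while the other 8 libraries have medians of 60 to 80 bp. Replicate 1 is the only pair of etoposide and untreated libraries that shares a run, so its values are the within-run comparison. Etoposide replicate 2 and both pretreated etoposide libraries share another run, while untreated replicate 2, IFN and DRB share a different one. Outside replicate 1, etoposide and run therefore cannot be told apart. Whether the replicates were separate cultures is not given by the labels, and intervals given for counts cover counting error only. A limit of 3 junctions is used for what a count of 0 allows.

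Junction reads show what was counted. The reads below were chosen as the junction nearest the 5′ end among those of the leading members, with a second Ebf1 read because it carries inserted bases, an Ikzf1 read from an untreated library and an Ets1 read from the DRB and AsiSI library. Each is printed 5′ to 3′ from the deposited read as 24 bases that align to the bait alone, then the bases at the joint, then prey. Capitals mark bases that align to both bait and prey, except in the last read, where they mark inserted bases that align to neither, and a read without capitals is a direct joint.
Blnk, etoposide replicate 1, chr19:40993332, minus strand: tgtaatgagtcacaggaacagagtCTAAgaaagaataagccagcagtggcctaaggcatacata
Ebf1, etoposide replicate 1, chr11:44676128, minus strand: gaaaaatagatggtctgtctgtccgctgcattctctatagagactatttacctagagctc
Pax5, etoposide replicate 2, chr4:44702574, plus strand: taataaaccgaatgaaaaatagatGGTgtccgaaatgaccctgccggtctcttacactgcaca
Lef1, etoposide replicate 1, chr3:131110934, plus strand: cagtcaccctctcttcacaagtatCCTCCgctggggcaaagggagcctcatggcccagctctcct
Bach2, etoposide replicate 2, chr4:32248510, plus strand: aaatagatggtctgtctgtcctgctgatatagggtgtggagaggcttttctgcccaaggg
Ikzf1, untreated replicate 2, chr11:11687905, plus strand: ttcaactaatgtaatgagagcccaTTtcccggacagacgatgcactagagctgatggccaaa
Ets1, DRB and AsiSI, chr9:32696097, plus strand: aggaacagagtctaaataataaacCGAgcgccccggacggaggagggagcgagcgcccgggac
Ebf1, etoposide replicate 1, chr11:44774437, minus strand: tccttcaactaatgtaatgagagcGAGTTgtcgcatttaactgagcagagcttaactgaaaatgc
The coordinates are mm10 positions of the first prey base at the joint. All 8 reads start in the same stretch of chromosome 6, where bait ends most often stop at position 41554961, and they reach 8 different positions on 5 other chromosomes.

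With etoposide, B-lineage genes carried junctions at several times the density of protein-coding genes as a whole. Density is given as junctions per 100000 junctions outside chromosome 6 per Mb of gene window, and the 39 windows cover 3.13 Mb. The list held 392 with DRB and etoposide (95% Poisson interval 47.5 to 1418, from 2 junctions), 351 with IFN and etoposide (220 to 531, from 22), 313 in etoposide replicate 1 (240 to 400, from 63) and 421 in etoposide replicate 2 (278 to 613, from 27). All protein-coding genes lay between 49.1 and 69.0 in the same 4 libraries. Untreated replicates 1 and 2 had 207 (56.4 to 530, from 4 junctions) and 130 (3.28 to 722, from 1), and all protein-coding genes had 39.9 and 47.0 there. The group means for the list were 367 ± 76.9 with etoposide and 168 ± 54.8 untreated (SD, n = 2 each). Both etoposide libraries lay above both untreated ones, and the difference of 199 was 106 within replicate 1 and 292 within replicate 2. For all protein-coding genes the means were 68.5 ± 0.740 with etoposide and 43.5 ± 5.02 untreated (SD, n = 2 each). Relative to all protein-coding genes of the same library, the list was 4.60 times as dense in etoposide replicate 1 and 6.11 times in replicate 2, against 5.19 and 2.76 times in untreated replicates 1 and 2, so within the shared run this ratio was no higher with etoposide. No p is given for the sum over the list, since its members were chosen with results of these data known.

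**Figure D1:**
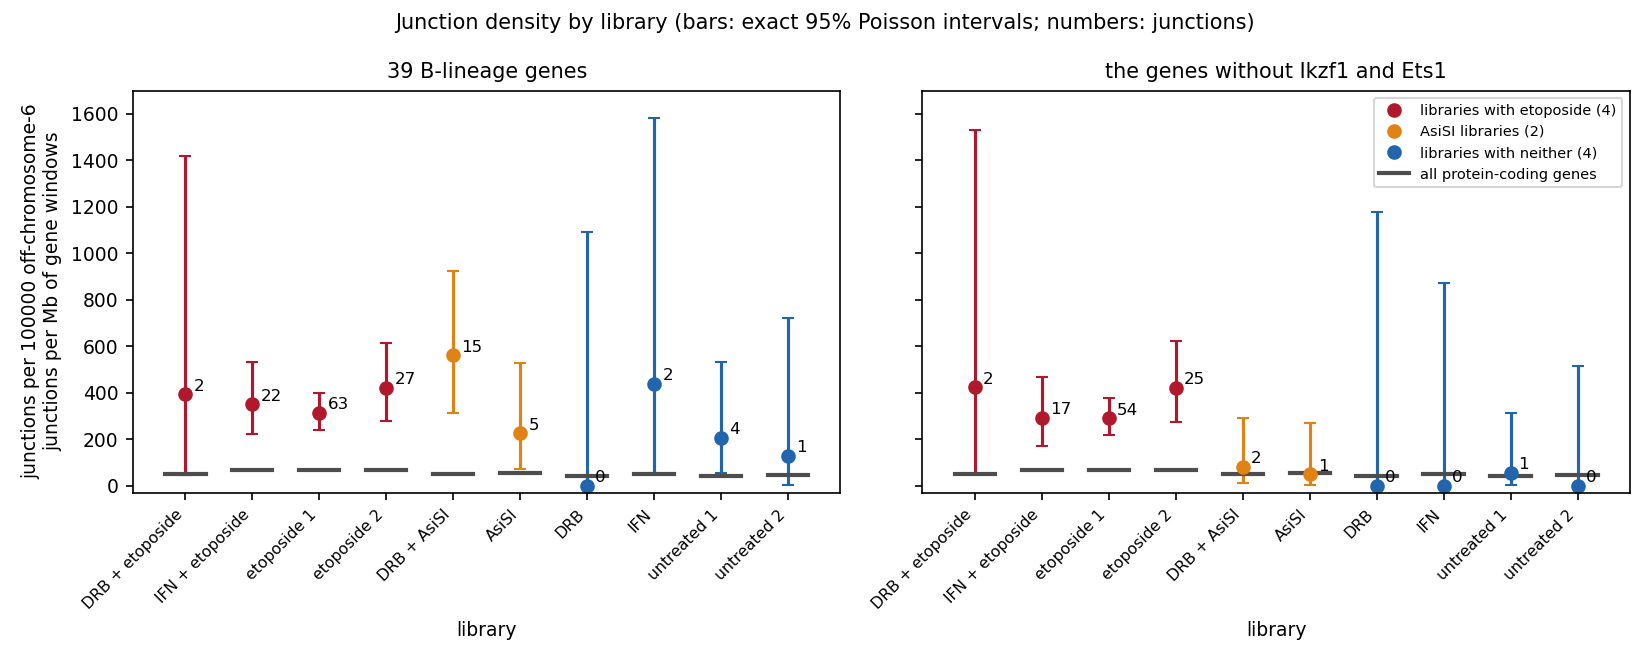
Junctions per 100000 off-chromosome-6 junctions per Mb of gene window (vertical axis, linear) in each of the 10 libraries, with exact 95% Poisson intervals, for all 39 genes on the left and for 37 genes without Ikzf1 and Ets1 on the right. Numbers beside the points are junction counts, and grey dashes are all protein-coding genes. With all 39 genes the DRB and AsiSI library (15 junctions) and the IFN library (2 junctions) lie above all 4 etoposide libraries. Without Ikzf1 and Ets1 the 4 etoposide libraries lie at 289 or above and the other 6 at 80.7 or below. That pair was left out after it was seen to hold 23 of the 27 junctions found without etoposide, so this separation follows largely from the choice.

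A pair of genes, Ikzf1 and Ets1, supplied most B-lineage junctions found without etoposide. Of the 27 such junctions, Ikzf1 held 6 in the AsiSI libraries and 4 in the libraries with neither agent, and Ets1 held 11 and 2. The other 37 genes held 3 junctions in the AsiSI libraries (Plcg2, Tcf3 and Bcl6, 1 each) and 1 in the 4 libraries with neither (Btk, untreated replicate 1), against 98 in the 4 etoposide libraries. Without this pair, a choice made after these counts were seen, the densities were 424 with DRB and etoposide, 293 with IFN and etoposide, and 289 and 421 in etoposide replicates 1 and 2. The remaining libraries then had 80.7 with DRB and AsiSI, 48.7 with AsiSI, 55.9 and 0 in untreated replicates 1 and 2, and 0 with DRB and with IFN. Those zeros are loose, since 3 junctions would amount to 419 in untreated replicate 2, 709 with IFN and 959 with DRB. The etoposide minus untreated difference was 327 for these 37 genes, with 233 within replicate 1 and 421 within replicate 2.

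Of the 39 genes, 29 had at least 1 junction over the 4 etoposide libraries, where 25.5% of all protein-coding genes did. The windows are longer than usual (median 46.1 kb for the members and 27.1 kb for all genes outside the list), and window length was not matched. By role, 17 of the 19 transcription factors and coactivators had a junction, 6 of the 10 pre-B receptor and signalling genes, 1 of the 3 recombination genes and 5 of the 7 receptors. The pooled densities over these libraries were 347 for the factors (95% Poisson interval 275 to 431), 392 for receptor signalling (251 to 584), 250 for recombination (30.3 to 903, from 2 junctions) and 229 for the surface and cytokine receptors (92.2 to 472), and these intervals overlap. Over the 2 etoposide libraries without pretreatment 27 of the 39 had a junction, beside 21.6% of all genes, and over the 2 untreated ones 3 did, beside 1.98%. In the AsiSI libraries 5 of the 39 genes had a junction, beside 2.95% of all genes, and in the 4 libraries with neither agent 3 did, beside 2.58%.

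**Figure D2:**
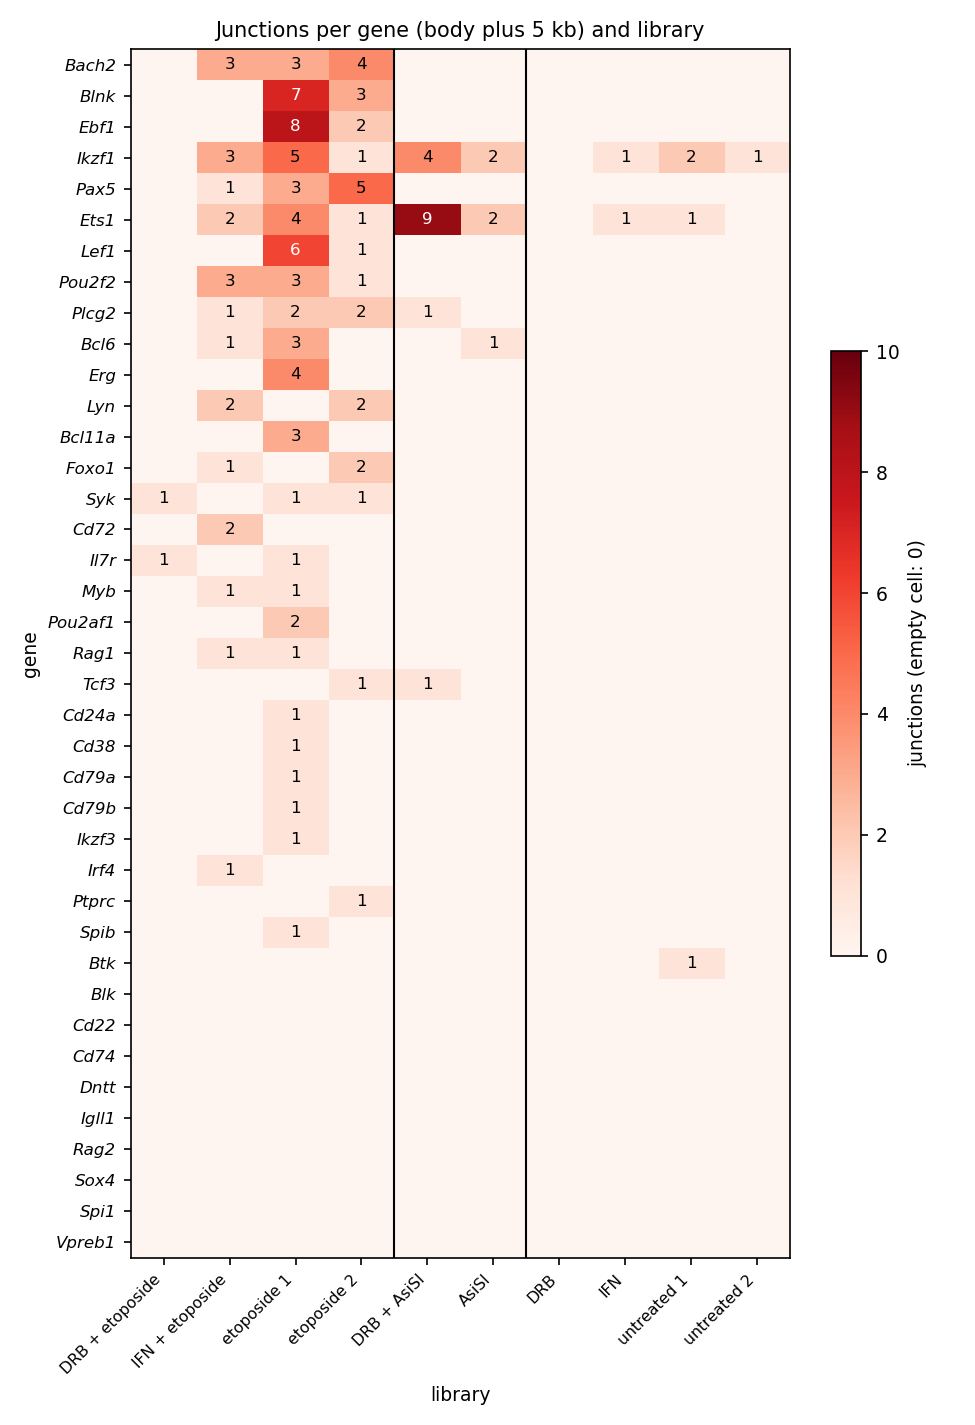
Junctions in each of the 39 genes (rows, ordered by their count over the 4 etoposide libraries) and 10 libraries (columns); colour and digits give the count and empty cells are 0. Most filled cells are in the 4 columns with etoposide, the rows of Ikzf1 and Ets1 go on to the right of them, and 9 genes have none in any library.

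Among the transcription factors with at least 4 etoposide junctions, Ebf1, Pax5, Bach2, Lef1, Pou2f2 and Erg had none in any other library. This is common at the present depth. Of 231 genes with at least 5 junctions over the 8 libraries without AsiSI, 188 had none without etoposide. Ebf1 (chr11:44618100-45008096, plus strand), the factor that specifies the lineage, was joined 8 times in etoposide replicate 1, 2 times in replicate 2 and not at all in the other 8 libraries. Pax5 (chr4:44524748-44710694, minus strand), which commits cells to the lineage, had 3 and 5 in etoposide replicates 1 and 2 and 1 with IFN and etoposide, against 0 in both untreated libraries. Both genes are long, and the junctions amount to pooled densities of 235 for Ebf1 (112 to 431) and 431 for Pax5 (197 to 818) over the 4 etoposide libraries.

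Bach2 (chr4:32238413-32586109, plus strand) encodes a repressor that acts at the pre-B receptor checkpoint. Its counts were 3 and 4 in etoposide replicates 1 and 2 and 3 with IFN and etoposide, against 0 in both untreated libraries. Lef1 (chr3:131110297-131224357, plus strand), a factor of the Wnt pathway used by early B cells, had 6 and 1 in the etoposide libraries and 0 elsewhere, so it rests mostly on replicate 1. For Pou2f2 (chr7:25087350-25180797, minus strand), which encodes the octamer-binding protein Oct-2, the counts were 3 and 1 in etoposide replicates 1 and 2 and 3 with IFN and etoposide, and 0 in the rest. None of these genes had a junction in the DRB and etoposide library, which held 163 outside chromosome 6 in all. Erg (chr16:95359169-95586600, minus strand), an ETS factor of blood progenitors, had 4 junctions, all in etoposide replicate 1. Bcl6 (chr16:23965050-23988866, minus strand), a repressor that protects pre-B cells from DNA damage signals, had 3 in etoposide replicate 1, 1 with IFN and etoposide and 1 with AsiSI. The 4 etoposide junctions of Bcl6 lay within 2.70 kb of each other.

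The remaining factors had few junctions. Foxo1, which activates the Rag genes, had 2 in etoposide replicate 2 and 1 with IFN and etoposide, and Bcl11a, needed for early B cells, had 3 in etoposide replicate 1, of which 2 share 1 position. Myb and Pou2af1, the coactivator of the octamer factors, had 2 each over the etoposide libraries. Tcf3, Ikzf3, Irf4 and Spib had 1 each, and Tcf3 had 1 more with DRB and AsiSI. Sox4 and Spi1, the gene of PU.1, had 0 in all 10 libraries, with windows of 14.8 and 43.4 kb.

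Blnk and Bcl6 were the most densely joined of the 12 members with at least 4 etoposide junctions, in an order that depends on the window. Blnk encodes the adaptor that links Syk to Btk and Plcg2 (chr19:40928927-40994221, minus strand). Blnk was joined 7 times in etoposide replicate 1, 3 times in replicate 2 and not at all in the other 8 libraries. The pooled density over the 4 etoposide libraries was 1246 (597 to 2291), and the intervals of Ebf1 (112 to 431) and Bach2 (126 to 482), with as many junctions in much longer windows, lay below its own. Bcl6 had 1110 (302 to 2841) from 4 junctions, and on the body alone it was the denser, at 1575 (429 to 4034), against 1437 (689 to 2642) for Blnk, so these intervals overlap on both windows. Plcg2 (chr8:117498275-117635142, plus strand), the phospholipase that Blnk brings to Btk, had 2 junctions in each etoposide library, 1 with IFN and etoposide and 1 with DRB and AsiSI. Lyn (chr4:3678068-3791612), a Src-family kinase of the receptor, had 2 in etoposide replicate 2 and 2 with IFN and etoposide, but 0 in the deepest library, etoposide replicate 1. Syk, the kinase that starts the cascade, had 1 junction each in etoposide replicates 1 and 2 and with DRB and etoposide. Cd79a and Cd79b, the signalling chains, had 1 each in etoposide replicate 1, and Vpreb1, Igll1 and Blk had none. Btk had its single junction in untreated replicate 1.

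Genes of recombination and surface receptors had at most 2 junctions each. Rag1 had 1 in etoposide replicate 1 and 1 with IFN and etoposide, while its neighbour Rag2 and Dntt, the template-free polymerase, had 0 throughout. Il7r, the receptor for interleukin-7, a growth factor of normal early B cells, had 1 with DRB and etoposide and 1 in etoposide replicate 1. Cd72, an inhibitory receptor, had 2 with IFN and etoposide, and Cd24a, Cd38 and Ptprc had 1 each in the etoposide libraries. Cd22 and Cd74 had 0. The windows of the genes at 0 here are 17.8 kb (Rag2), 18.8 kb (Cd74), 24.9 kb (Cd22) and 40.3 kb (Dntt), all below the median of the 39 genes, so a 0 there says little.

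In both etoposide libraries, and in neither untreated one, 8 of the 39 genes had a junction, where 3.23% of all protein-coding genes did. These were Ebf1, Pax5, Blnk, Bach2, Lef1, Syk, Plcg2 and Pou2f2. For single genes this order is not a measured difference, since untreated depth is low. In the 2 etoposide libraries without pretreatment, their highest rates per 100000 junctions were 244 for Pax5, 195 for Bach2 and 146 for Blnk, all in replicate 2. All lay under the 347 per 100000 that a count of 0 among 865 untreated junctions allows. With DRB and etoposide, Syk had 613 from 1 junction among 163.

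Across all genes, limma with voom weights on 154 genes with at least 5 junctions over the 2 etoposide and 2 untreated libraries called 0 genes higher (0%) and 2 lower (1.3%) with etoposide at an adjusted p under 0.05. Unadjusted, 0 genes were higher and 12 lower at p under 0.05, and Fisher's exact test on pooled junctions called 0 higher and 1 lower. The fit held 7 of the 39 genes, called none of them, and had Ikzf1 alone under 0.05 unadjusted. With the replicate number as a block, following the controls that the labels name, limma called 18 genes lower and 0 higher, among them 2 of the 7 members, Ikzf1 and Ets1. Of the 154 genes, 129 had no untreated junction, as did 5 of the 7 members, so these entered the fit through their etoposide junctions alone. The fitted changes of these genes depend on the prior count of 0.5 and unequal depth, which also put the median log2 change of all 154 genes at -0.82. The fitted values of Blnk (0.14 ± 1.11 SE), Ebf1 (-0.01 ± 1.11) and Pax5 (-0.08 ± 1.11) lie above that median and are no bound on any difference. In the fit over 8 libraries with pretreatment as a term, 231 genes gave 0 calls higher (0%) and 6 lower (2.6%), where 0 genes were higher and 33 lower unadjusted. Of the 9 members fitted only Ikzf1 was called.

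Ikzf1 (chr11:11684962-11772930, plus strand) encodes Ikaros, a zinc-finger factor lost in many pre-B leukaemias. It was the member most often joined without etoposide or AsiSI. Its counts were 0 with DRB and etoposide, 3 with IFN and etoposide, 5 and 1 in etoposide replicates 1 and 2, 4 with DRB and AsiSI, 2 with AsiSI, 0 with DRB, 1 with IFN, and 2 and 1 in untreated replicates 1 and 2. Per 100000 junctions outside chromosome 6 this was 77.6 and 48.8 in the etoposide libraries and 324 and 405 in the untreated ones, and the groups did not overlap. The log2 change, etoposide minus none, was -2.32 ± 0.59 over the 8 libraries (limma adjusted p = 0.00800), with a median of -1.18 for all 231 genes. Over the 4 libraries it was -2.56 ± 0.79 (limma adjusted p = 0.0703), and with the replicate block -2.73 ± 0.35 (limma adjusted p = 7.7e-11), where the median of all genes was -0.70 and the fit leaves 1 residual degree of freedom per gene. The 8-library call rests on few junctions, and its fit has no term for sequencing run. It was lost without any 1 of etoposide replicate 1 (adjusted p = 0.402), etoposide replicate 2 (0.505), IFN (0.130) or IFN with etoposide (0.294), and with library sizes from junctions within 1 Mb of the bait (0.462). On that last scale Ikzf1 was at 0.89 and the median of the 231 genes at 2.14. Ikzf1 thus lay 1.25 below the median there and 1.15 below it with sizes from all junctions outside chromosome 6. In other settings of this fit, Ikzf1 minus the median ran from -1.94 with at least 10 junctions to -0.02 with at least 1. It was -0.30 with 20 kb added to the body and -0.29 without etoposide replicate 2. Over 17 alternative settings the limma adjusted p ran up to 0.573 and down to 1.4e-05, and 9 kept it under 0.05.

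Positions in Ikzf1 differed by kind of library. In the first 12 kb of the gene body lay 2 of the 9 etoposide junctions, 6 of the 6 AsiSI-library junctions and 3 of the 4 from libraries with neither agent. Beyond 12 kb lay the other 7 with etoposide and 1 from untreated replicate 1. The boundary was set after the positions were seen, and the AsiSI junctions include 1 position counted 2 times in 1 library with bait ends 1 bp apart. The second of the starts that RefSeq (GRCm38.p6) lists for the gene lies in this stretch and had 4 junctions within 1 kb, 1 in etoposide replicate 1, 2 with AsiSI (the same position) and 1 with IFN. All 4 lay downstream of that start. Its promoter, shown because of these nearby junctions, is printed below with the bases from the listed start on in capitals.
Ikzf1 promoter, chr11:11689927-11690226, plus strand: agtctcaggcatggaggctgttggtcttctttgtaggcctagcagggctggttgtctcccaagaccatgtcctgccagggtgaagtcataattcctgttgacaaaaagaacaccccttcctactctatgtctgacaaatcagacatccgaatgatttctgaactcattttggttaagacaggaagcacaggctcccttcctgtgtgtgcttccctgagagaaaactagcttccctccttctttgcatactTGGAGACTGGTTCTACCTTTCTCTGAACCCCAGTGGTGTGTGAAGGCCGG
No junction of the gene fell inside these 300 bases.

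Ets1 (chr9:32636241-32757820), an ETS factor active in lymphocytes, had a cluster that no etoposide library shared. It had 0 junctions with DRB and etoposide, 2 with IFN and etoposide, 4 and 1 in etoposide replicates 1 and 2, 9 with DRB and AsiSI, 2 with AsiSI, 0 with DRB, 1 with IFN, and 1 and 0 in untreated replicates 1 and 2. Of its 20 junctions, 12 lay between positions 32692446 and 32699467, within 7.02 kb. These were 9 with DRB and AsiSI, 1 with AsiSI, 1 with IFN and 1 in untreated replicate 1, while the 7 etoposide junctions all lay outside. Etoposide minus untreated was -1.69 ± 0.93 on the log2 scale over the 4 libraries (limma adjusted p = 0.767) and -1.75 ± 0.47 with the replicate block (limma adjusted p = 0.00294). The 6 libraries without etoposide had 2684 junctions outside chromosome 6, in 2076 windows of 10 kb. Of these windows, 8 held at least as many junctions as this one, itself included. The 4 etoposide libraries had 10660 junctions and none in this window. The window was picked for its junctions and is not tested. Orientation was even, with 6 plus and 6 minus prey. With a division chosen from the positions, 5 of the 6 plus-strand prey lay at or above 32696097 and 4 of the 6 minus-strand prey at or below 32696050.

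**Figure D3:**
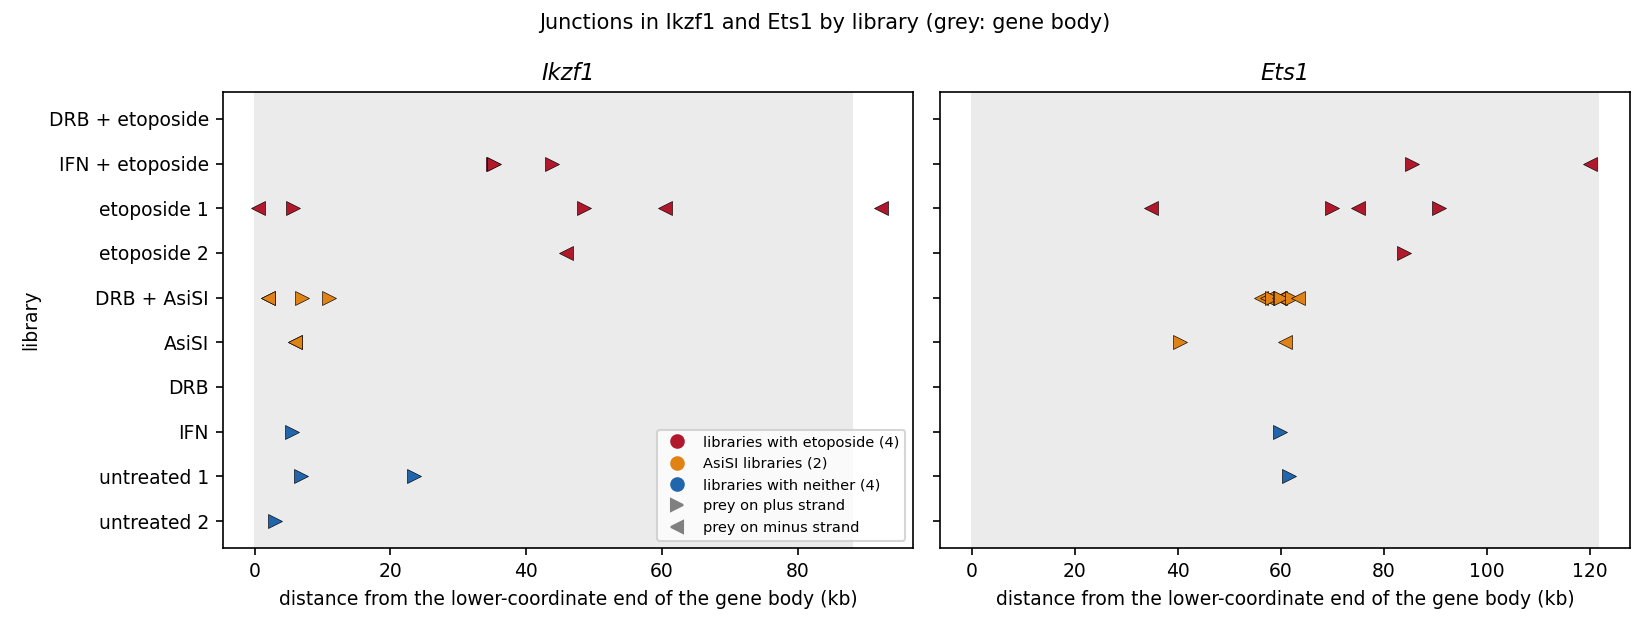
Position of each junction in Ikzf1 and Ets1 (horizontal axis, kb from the lower-coordinate end of the gene body, which is grey) by library (rows), with arrowheads for prey strand. In Ikzf1 the AsiSI-library junctions lie within 12 kb of the left end, and in Ets1 the 9 junctions of the DRB and AsiSI library crowd into a stretch that the 4 etoposide libraries leave empty.

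The AsiSI libraries otherwise gave few B-lineage junctions. The list had 561 per 100000 per Mb with DRB and AsiSI (314 to 924, from 15 junctions) and 226 with AsiSI (73.2 to 526, from 5), against 207 and 130 in the untreated libraries. Of these 15 and 5 junctions, 13 and 4 were in Ikzf1 and Ets1. The AsiSI libraries share no sequencing run with the untreated ones and also received tamoxifen, so enzyme, tamoxifen and run cannot be told apart. AsiSI cuts the palindrome GCGATCGC, which reads the same on both strands. It occurs in 73 of 32851 RefSeq promoters of 300 bases (0.222%) and in 1 of the 41 promoters listed for 31 of the members, that of Plcg2, shown here with the site in capitals.
Plcg2 promoter, chr8:117498025-117498324, plus strand: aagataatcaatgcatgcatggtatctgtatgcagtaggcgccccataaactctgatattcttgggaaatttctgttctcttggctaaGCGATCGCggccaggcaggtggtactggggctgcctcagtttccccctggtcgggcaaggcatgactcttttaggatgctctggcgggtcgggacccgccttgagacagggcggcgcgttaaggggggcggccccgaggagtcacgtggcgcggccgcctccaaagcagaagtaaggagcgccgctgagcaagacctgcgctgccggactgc
The only AsiSI-library junction of Plcg2 lay 73.1 kb from this start, so none was near the site. Promoters were not listed for Ikzf3, Lyn, Blk, Spi1, Cd74, Cd79b, Cd24a and Ets1.

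Junctions lay along the gene bodies. Of the 141, 135 were inside a body and 6 in the flanking 5 kb, and none lay in the body of another protein-coding gene. Among the 4 etoposide libraries, 28 of 114 lay within 5 kb of the 5′ end of the annotated body. Where no strand was known, the nearer end was used. The share was 24.6% (exact 95% binomial interval 17.0 to 33.5), where an even spread over the windows would give 14.9%. For all protein-coding genes the share was 31.3% (30.4 to 32.3), where an even spread would give 26.4%. With genes of known strand alone, it was 25.0% (16.9 to 34.7) for members and 28.0% (27.0 to 29.1) for all. An even spread would give 13.1% and 22.6% there. Measured from the nearest start that RefSeq lists, which was possible for 100 of the junctions, 32.0% of B-lineage and 31.3% of all etoposide junctions lay within 5 kb, where an even spread would give 15.9% and 24.6%. In the AsiSI libraries the same measure gave 6 of 9 B-lineage junctions and 52.6% of 848 over all genes. Most of these 6 were in Ikzf1, with a repeated position among them. The measure leaves out the 11 Ets1 junctions of these libraries, since no start was listed for Ets1.

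Members differed in where they were joined. Blnk had 5 of its 10 etoposide junctions within 5 kb of its 5′ end, at a median of 4.93 kb in a body of 65.3 kb. Ebf1, Pax5 and Bach2 had none there, with medians of 201, 37.8 and 139 kb, and none within 5 kb of the nearest listed start. In Ebf1 the nearest lay 58.0 kb from the 5′ end of the body. Pou2f2 depends on the measure, since its 7 junctions lay 51.5 to 92.2 kb from the 5′ end of the body (93.4 kb long), but 2 of the 7 lay within 5 kb of its listed start, at a median of 14.8 kb. From the nearest listed start, 4 of 4 in Bcl6 lay within 5 kb, 4 of 7 in Lef1, 2 of 9 in Ikzf1, 1 of 5 in Plcg2 and 1 of 4 in Erg. Where a strand was known, 58 prey ran with the gene and 56 against it.

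**Figure D4:**
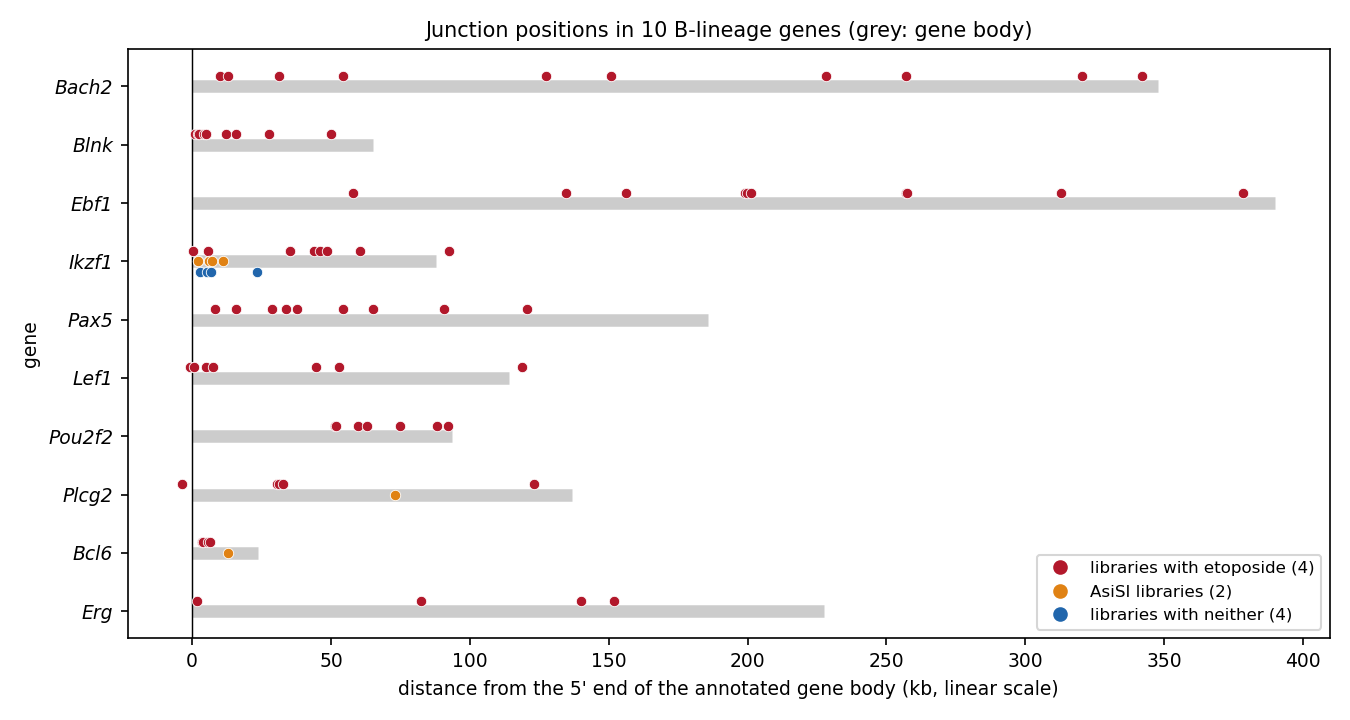
Junction positions in the 10 genes with at least 4 etoposide junctions and a known strand (rows), as distance in kb from the 5′ end of the annotated body (horizontal axis, linear); grey bars are gene bodies. Blnk and Bcl6 junctions sit towards the left end, Ebf1, Pax5 and Bach2 junctions lie at 8.12 kb or more from it, Pou2f2 junctions lie at 51.5 kb or more, and AsiSI-library and other points appear mainly in Ikzf1.

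The pretreatments were single libraries, so the values below compare libraries. With DRB, which blocks elongation by RNA polymerase II, the list took 2 of 163 junctions after etoposide (Syk and Il7r, density 392), against 313 and 421 in the etoposide libraries without DRB. No difference in the share of off-chromosome-6 junctions that fell in these genes was detectable at this depth. Per 1000 junctions within 1 Mb of the bait, the list had 0.887 with DRB and etoposide and 6.73 in etoposide replicate 2, which shares its run, a ratio of 0.132. All off-chromosome-6 junctions had a ratio of 0.142 on that scale, close to that of the list. Against etoposide replicate 1, which the labels name as the control but which lies in another run, the ratios were 0.0169 for the list and 0.0134 for all. DRB alone gave 0 of 108, which allows a density of up to 889.

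With IFN and etoposide the list had 22 junctions and a density of 351, between the values of the etoposide libraries. In that library 13 of the 39 genes had a junction, beside 7.26% of all protein-coding genes. Per 1000 junctions near the bait it had 6.84 with IFN and etoposide, 1.02 times the 6.73 of etoposide replicate 2, where all off-chromosome-6 junctions were at 1.22 times. Against the 52.6 of etoposide replicate 1, the control that the labels name, the ratios were 0.130 and 0.116. IFN alone had 2 junctions in 146, in Ikzf1 and Ets1, which give a density of 438 (53.1 to 1583). Set against the IFN library, IFN with etoposide was 12.4 times as high per junction near the bait, and all off-chromosome-6 junctions were 15.5 times. IFN with etoposide shares its run with etoposide replicate 2, while IFN and etoposide replicate 1 each lie in another run.

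Per junction near the bait, the list was higher with etoposide in both replicates, and so was the rest of the genome. It had 52.6 per 1000 in etoposide replicate 1 and 3.56 in untreated replicate 1, 14.8 times, where all off-chromosome-6 junctions were 9.78 times. In replicate 2 it had 6.73 with etoposide and 0.190 untreated, 35.5 times, where all off-chromosome-6 junctions were 10.9 times, and the untreated value rests on 1 junction. Etoposide replicate 2 (6.73) was close above untreated replicate 1 (3.56) on this scale, so the size depends on pairing each library with the control the labels name.

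Joints in B-lineage genes carried short shared sequences. In the etoposide libraries 103 of 114 joints, 90.4% (83.4 to 95.1), had at least 1 base aligned to both bait and prey, with a median of 3.5 bp and a maximum of 10 bp. Of the other 10546 off-chromosome-6 joints 83.8% (83.1 to 84.5) did, with a median of 3 bp. Inserted bases occurred in 2 of 114 and in 4.49% of the others. The difference between these shares was not tested, and joints from 1 library are not replicates.

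A further list of 58 genes of pre-B receptor, interleukin-7 receptor and early B-cell regulation off chromosome 6, none of them among the 39, was also joined with etoposide. Over the 4 etoposide libraries 41 of the 58 had a junction, beside the 25.5% of all genes, and the pooled density was 233 (194 to 278), against 342 (282 to 411) for the 39 genes. The group means were 241 ± 37.0 with etoposide and 56.8 ± 34.4 untreated (SD, n = 2 each). The leaders over the 4 etoposide libraries were the Forkhead gene Foxo3 with 9 junctions, the adaptor gene Pik3ap1 and the exchange factor gene Vav2 with 7 each, Mef2d with 6, and Arid5b and Inpp5d, the gene of the inositol phosphatase SHIP, with 5 each, tied with Tcf12, which also had 5. A set of 18 genes that mark T, myeloid and erythroid cells held 2 junctions in the etoposide libraries, both in Tcf7 in replicate 1. Their pooled density was 35.8 (4.34 to 129), an interval below that of the 39 genes. It includes the 67.8 of all protein-coding genes, so no lack of junctions in these 18 genes can be read from it. The most joined genes off chromosome 6 in the 2 etoposide libraries were Rere and Gse1 with 13 junctions each, Trio with 12, and Mtss1 and Arid1b with 11 each, beside 10 each in Blnk and Ebf1. Over the 4 etoposide libraries Bach2, Blnk and Ebf1 shared rank 11 by junctions among the 20757 genes. Raw counts favour long genes, and the windows of Bach2 and Ebf1 are 358 and 400 kb. By density, among genes with at least 5 of these junctions, Blnk ranked 21, Bach2 156 and Ebf1 165.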

How the data were processed

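Genomic DNA of 10 libraries was sequenced on a MiSeq after linear amplification from the bait, per the labels' protocols, which name the standard pipeline of the assay. The authors' deposited files give each junction a row with position, strand, read and alignments, and hold no count and no other normalized value, per the file headers. The builds mm10 and GRCm38.p2 and the tool bedtools are named in the submitters' processing notes, and no aligner is given in the sources used here. Junctions off chromosomes 1 to 19, X and Y (83) were left out. All junctions outside chromosome 6 were used, from 108 in the DRB library to 6443 in etoposide replicate 1, and they set the precision.

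The members and the pathway list were chosen with earlier results of these data known. Gene bodies came from RefSeq (GRCm38.p6), with 5 kb added on each side, and strands from its promoter table for 31 of the 39 members. For the others the nearer end of the body stood for the start. Named genes were the 39 members, with those of at least 4 junctions over the 4 etoposide libraries given in every library, up to 6 pathway genes and up to 5 other genes with the most junctions. Groups and replicate numbers came from the labels, which name untreated replicates 1 and 2 as the controls of etoposide replicates 1 and 2. Deviations of same-numbered libraries from their group means correlated at r = 0.26 over 154 genes. Replicate 1 of both groups shares a run, while the libraries of replicate 2 lie in different runs, so the fit with the replicate block is given beside the results it changes. Since no label tells whether replicates were separate cultures, the p-values cover library-to-library spread alone, and that may be technical.

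Junctions per gene were tested in R 4.3.3 using limma 3.58.1 and its voom weights, with a prior count of 0.5, library sizes of all junctions outside chromosome 6, a filter of at least 5 junctions and Benjamini-Hochberg adjustment over all genes fitted, at a threshold of 0.05. The fit was also run on simulated counts drawn at far greater depth than these libraries have. That run does not show how the fit performs at the present depth. Other work used Python 3.11.15, pandas 2.3.3 and scipy 1.17.1. Poisson and Clopper-Pearson intervals are exact, at 95%. Alternatives changed the gene window, filter, library size, repeated positions, voom weights, replicate block, the libraries included and the distance from the start. The settings without Ikzf1 and Ets1, from the nearest listed start, and per near-bait junction against single libraries were added after seeing the data.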

Additional observations from a re-analysis of the deposited data

Results flagged for a closer look

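In the IFN library the list density went the other way from the libraries without pretreatment. Etoposide minus none was -87.2 junctions per 100000 per Mb with IFN (IFN with etoposide 351, IFN 438), against 106 and 292 within replicates 1 and 2 without pretreatment. The IFN value rests on 2 junctions, in Ikzf1 and Ets1. Without these genes, left out after their counts were seen, the list had 293 with IFN and etoposide and 0 with IFN. Per 100000 junctions within 1 Mb of the bait and per Mb of gene window, the full list had 219 and 17.6, so the direction turned in both settings. The difference was not tested.

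For Ikzf1, AsiSI minus none was 467 junctions per 100000 outside chromosome 6 after DRB (4 junctions with DRB and AsiSI, 0 with DRB). Without pretreatment it was -41.5 against untreated replicate 1 and -123 against untreated replicate 2 (2 junctions with AsiSI, and 2 and 1 in the untreated libraries). The opposite signs put it here, and the difference was not tested. A count of 0 among 108 junctions with DRB allows far more than the other libraries showed.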

How the results depend on the processing

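Counts of called genes moved with most settings, always as genes lower with etoposide and with 0 higher. For etoposide against untreated the 2 calls became 3022 with at least 1 junction, 12 with at least 3 and 0 with at least 10, 0 with library sizes from junctions within 1 Mb of the bait or beyond it, 1 with voom weights left off, and 1 by Fisher's exact test. Leaving out 1 library gave 0 to 13. In the fit over 8 libraries the 6 calls became 53 with 20 kb added to the body, 5321 with at least 1 junction, 581 with at least 3, 1 with at least 10, and 0 with library sizes from junctions within 1 Mb of the bait or beyond it. Leaving out 1 library gave 0 to 11. With the replicate block the 4-library fit called 18 genes lower, 2 of them members, and Ikzf1 passed (limma adjusted p = 7.7e-11, the lowest of 13 settings for it in that fit, where 4 were under 0.05 and the highest was 1, by Fisher's exact test). Ets1 passed too (limma adjusted p = 0.00294), and no other member changed its call with that block. Lower filters moved other members. In the 4-library fit, 11 of 28 members were called lower with at least 1 junction (3022 of 4724 genes) and 0 of 12 with at least 3. In the 8-library fit, 23 of 30 were with at least 1 (5321 of 5575 genes) and 7 of 15 with at least 3 (581 of 931 genes).

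The list's difference between etoposide and untreated stayed positive in every setting run. It was 889 per 100000 junctions within 1 Mb of the bait per Mb of gene window. As a replicate block it was 106 within replicate 1 and 292 within replicate 2. Leaving out 1 library gave 145 to 253. The 327 without Ikzf1 and Ets1 is no independent check, since that pair was left out after its counts were seen. The difference of DRB with etoposide from etoposide (25.3) turned to -20.8 with 20 kb added. It was -920 per 100000 junctions near the bait per Mb of gene window (-187 against etoposide replicate 2 alone). Leaving out 1 etoposide library gave -29.0 to 79.7. The difference of IFN with etoposide from etoposide (-16.2) turned to 1.80 on the body alone. It was -730 near the bait (3.60 against etoposide replicate 2 alone, which shares its run). Leaving out 1 etoposide library gave -70.5 to 38.2. AsiSI minus untreated (57.3) turned to -38.4 near the bait, which untreated replicate 1 decided (-92.3 against it, 15.5 against replicate 2). DRB with AsiSI minus untreated (392) was -14.2 on that scale (-68.1 and 39.7 against untreated replicates 1 and 2) and 52.7 without Ikzf1 and Ets1. The share of junctions near the 5′ end, or the nearer end where no strand was known, was 12.3% within 2 kb and 33.3% within 10 kb. For Ikzf1 in the 8-library fit the change was 0.89 with near-bait library sizes, a scale that moved the median of all 231 genes from -1.18 to 2.14. The other causes were not tested. Untreated depth (865 junctions) limits every comparison of single genes.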
